A study of Mus musculus with 33 samples.

Results

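The homeobox genes Pax6, Pax7, Dbx1, Dbx2, Irx3, Irx5, Nkx2-2, Nkx6-1, Nkx6-2 and Gsx1 mark progenitor domains of the neural tube from dorsal to ventral, and they make up 10 of the 37991 gene identifiers counted in every library. They were chosen by gene family and domain, and with a readout in view, namely the very low Dbx1 level in embryoid bodies (EBs) of Neil1-deficient cells cultured with retinoic acid (RA). Values of that contrast, Neil1 against control in EBs + RA, are therefore given as a description with no test, and Dbx1 is given no p-value in any comparison that uses those libraries. Poly(A) RNA was sequenced from 33 libraries of E14TG2a cells, a mouse embryonic stem cell (mESC) line. Each genotype was examined as undifferentiated mESCs, as EBs cultured in suspension without RA, and as EBs + RA that received 5 µM RA from day 4 and were harvested, like the EBs, on day 8. The controls were 3 clones transfected with the empty CRISPR/Cas9 plasmid (#1, #4 and #7). Neil1 (#7, #9 and #11) and Neil2 (#1, #11 and #14) were represented by 3 independent clones each, and Apex1 by 1 clone (#46) in technical duplicates. Neil1 and Neil2 encode DNA glycosylases that remove oxidised bases, and Apex1 encodes the endonuclease that cuts the abasic sites left behind. The clones carried deletions around the exon coding for an active-site residue, and all clones, controls included, had passed through plasmid transfection and puromycin selection.

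In the neural tube, dorsal signals of the BMP and WNT families and ventral Sonic hedgehog set up stripes of progenitors, each with its own combination of homeodomain factors. Many of these factors are repressors that act in opposing pairs and sharpen the border between neighbouring stripes. RA, made by the somites, supports neural differentiation and the induction of genes such as Pax6 and Irx3, and in EB cultures it favours neural fates.

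The libraries held 21523742 to 48350904 counts assigned to genes (median 26720028), and 30 pairs of libraries of the same group all differed beyond sampling noise (chi-square per degree of freedom 5.58 to 127). Levels are given as CPM, the count of a gene scaled to the total of gene counts in its library after adjusting that total by TMM. TMM gives each library a normalisation factor, so a level can differ from the count over the plain total. Neil1 was at 6.05 to 8.12 CPM in control EBs + RA and at 2.18 to 4.34 CPM in the Neil1 clones. In mESCs it was not lower throughout, at 7.62 to 9.85 CPM in controls and 2.48 to 31.5 CPM in Neil1 clones. Neil2 was not lower in Neil2 clones (4.86 to 5.85 CPM against 3.40 to 4.50 CPM in control EBs + RA), and Apex1 was higher in the clone labelled Apex1 (56.5 to 64.3 CPM against 12.6 to 14.4 CPM). The deletions removed only a stretch of each gene while the counts cover all exons, so these levels do not check the deletions of any of the targeted genes. In bulk RNA, fewer cells of a type and less RNA per cell cannot be told apart.

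The start regions of the members show what their sequences have in common and where they differ. RefSeq promoters (GRCm38.p6) matched 9 of the 10 members, with 10 start sites, and Irx5 was unmatched. The 250 bases before the start are printed below for Dbx1 and Pax6, which had the steepest change with RA in control clones, for Nkx6-2, which lay on the other side in the mutants, and for Irx3, which rose with RA in every genotype. Capitals mark CCAAT and TATAAA, the letters of the CCAAT box and the TATA box, and both motifs were added after the sequences had been seen. The regions are chr7:49636836-49637085 (minus strand), chr2:105668646-105668895 (plus strand), chr7:139582798-139583047 (minus strand) and chr8:91801655-91801904 (minus strand).
Dbx1: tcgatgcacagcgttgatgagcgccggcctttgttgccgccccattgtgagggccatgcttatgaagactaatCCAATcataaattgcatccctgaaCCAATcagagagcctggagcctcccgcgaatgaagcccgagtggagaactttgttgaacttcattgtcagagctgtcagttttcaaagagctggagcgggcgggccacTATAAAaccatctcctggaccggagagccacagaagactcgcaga
Pax6: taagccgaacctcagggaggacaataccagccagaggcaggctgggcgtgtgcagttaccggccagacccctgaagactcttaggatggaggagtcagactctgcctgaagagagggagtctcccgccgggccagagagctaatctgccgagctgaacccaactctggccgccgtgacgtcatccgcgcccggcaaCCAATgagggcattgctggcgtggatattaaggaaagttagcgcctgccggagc
Nkx6-2: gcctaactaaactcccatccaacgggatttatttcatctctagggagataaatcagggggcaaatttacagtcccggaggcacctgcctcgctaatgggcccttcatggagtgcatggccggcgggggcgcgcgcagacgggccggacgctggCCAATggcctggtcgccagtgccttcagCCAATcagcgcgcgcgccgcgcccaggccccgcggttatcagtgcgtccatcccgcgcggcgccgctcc
Irx3: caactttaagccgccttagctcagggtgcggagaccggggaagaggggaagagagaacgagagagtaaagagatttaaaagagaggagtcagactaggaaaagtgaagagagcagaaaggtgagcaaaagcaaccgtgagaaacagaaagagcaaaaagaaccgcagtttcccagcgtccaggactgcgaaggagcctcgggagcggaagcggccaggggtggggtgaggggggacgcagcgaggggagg

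CCAAT stood on the printed strand of Dbx1 at positions -177 and -153 from the start, of Nkx6-2 at -97 and -69, and of Pax6 at -54. TATAAA occurred in Dbx1 alone among the members, at -45. Over all 32851 promoters of the same length (300 bases, of which 50 follow the start), 37.4% held CCAAT and 13.6% held TATAAA on either strand. The retinoic acid receptor half-site AGGTCA (16.3% of all promoters), the homeodomain core pair TAATTA (5.29%), the GLI site GACCACC (2.8%) and the E-box CAGCTG (16.3%) were found in 0 of the 10 member promoters on either strand, which says only that these letters were not in this window. Member promoters held 10 to 40 CpG dinucleotides, above the median of 7 over all promoters (quartiles 3 and 20). Nkx6-1 had the most (40), followed by Nkx6-2 (32), and Dbx1 (15) and Irx3 (14) were nearer the low end of the members.

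In control clones, RA raised 6 of the 7 members tested, Dbx1 aside, and lowered 0, against 23.3% of all 15919 genes tested that were called higher. A gene was called changed at a false discovery rate (FDR) under 0.1 and an absolute log2 fold change over 0.5, in a quasi-likelihood test by edgeR, adjusted over all genes tested after Benjamini and Hochberg, and the errors of log2 fold changes are standard errors. Pax7, a paired-box factor of the dorsal progenitors, was at 0.441, 0.428 and 0.479 CPM in EBs of clones #1, #4 and #7 and at 4.16, 3.24 and 2.12 CPM after RA. All RA libraries lay above all EB libraries (log2 fold change 2.80 ± 0.33, FDR = 0.000181). Pax6, which covers a broad band of dorsal and intermediate progenitors and is also used in the eye and pancreas, was at 0.652, 1.09 and 0.958 CPM without RA and at 128, 128 and 47.8 CPM with it. The groups were far apart although clone #7 reached less than the others (log2 fold change 6.84 ± 0.47, FDR = 2.28e-05).

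Dbx1, a homeodomain factor of the p0 progenitors at the middle of the dorsoventral axis, showed the steepest change of the members in control clones. It was at 0.105, 0.0779 and 0 CPM in EBs and at 74.2, 85.9 and 16.1 CPM in EBs + RA. Summed over the clones this was 7 counts against 5010, a depth-scaled ratio of 826. No p-value or interval is given because the control EBs + RA were used to choose Dbx1. Dbx2, the related factor of a wider intermediate band, moved far less (0.778, 1.25 and 1.22 CPM to 2.58, 2.26 and 2.29 CPM, log2 fold change 1.15 ± 0.28, FDR = 0.00808).

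The Iroquois factors, repressors of the intermediate neural tube, rose together in control clones. Irx3 went from 2.00, 3.50 and 1.33 CPM to 44.0, 53.1 and 22.2 CPM (log2 fold change 4.13 ± 0.43, FDR = 0.000135). Irx5, a neighbour of Irx3 in the same gene cluster on chromosome 8, went from 0.504, 0.934 and 0.442 CPM to 19.0, 24.0 and 5.80 CPM (log2 fold change 4.70 ± 0.58, FDR = 0.000331). For both genes the lowest RA library exceeded the highest EB library by several fold. Irx3 lies at chr8:94322428-94325553 and Irx5 at chr8:94881695-94885351 in NCBIM37, the build of the counts.

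The ventral members behaved unequally. Nkx6-1, a repressor of the ventral progenitors that give rise to motor neurons among others, was at 1.43, 1.63 and 0.442 CPM in control EBs and at 3.63, 2.71 and 2.65 CPM after RA, with no overlap (log2 fold change 1.33 ± 0.42, FDR = 0.026). Nkx6-2, its close relative, overlapped between the conditions (0.462, 1.01 and 0.626 CPM against 0.562, 1.21 and 0.927 CPM), and the change did not pass the test (log2 fold change 0.38 ± 0.41, FDR = 0.47). Nkx2-2, the most ventral of the members and a Sonic hedgehog target of the p3 domain, was too low to be tested, with 22 counts over the control EBs and 3 counts over the control EBs + RA (ratio 0.157, 95% exact interval 0.0302 to 0.524). Gsx1, a factor of dorsal interneuron progenitors, was also too low, with 16 counts and 29 counts, respectively (ratio 2.09, interval 1.10 to 4.12). These intervals cover counting error only and not the spread between clones.

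Levels were also set on a per-length scale, CPM per kilobase of exon. The length joins all annotated exons of a gene (19833 bases for Pax6, 2091 for Dbx1) and is not that of 1 transcript. The order of different genes therefore depends on the annotation. In control EBs + RA the order was led by Dbx1 at 28.1 ± 17.9 (SD, n = 3). Irx3 followed at 16.9 ± 6.77, then Irx5 at 6.77 ± 3.91 and Pax6 at 5.10 ± 2.33. The ranges of neighbours in this order overlapped: Dbx1 spanned 7.70 to 41.1 and Irx3 9.45 to 22.6, Irx5 reached 9.99, and Pax6 spanned 2.41 to 6.46. A gap followed, with Nkx6-1 at 0.891 ± 0.163, Dbx2 at 0.686 ± 0.0507, Pax7 at 0.542 ± 0.174 and Nkx6-2 at 0.471 ± 0.170, all below the lowest Pax6 library. Dbx2 overlapped in range with Pax7, and Pax7 with Nkx6-2, whereas Nkx6-1 (0.787 to 1.08) lay just above Dbx2 (0.654 to 0.745). Gsx1 at 0.190 ± 0.118 and Nkx2-2 at 0.0126 ± 0.0131 closed the order, each without overlap with the member before it. Pax6 has exon bases shared with another gene in which reads are not counted, and over its other bases alone it was at 7.08 ± 3.23, so that its order with Irx5 turned.

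Control clone #7 stood apart in EBs + RA for some members and not for others. Relative to the mean of clones #1 and #4, its level was 0.201 for Dbx1, 0.270 for Irx5, 0.374 for Pax6 and 0.457 for Irx3. For Pax7 it was 0.573, and for Nkx6-1, Dbx2 and Nkx6-2 it was 0.835, 0.945 and 1.05. The summed level of pan-neural progenitor markers was also lowest in clone #7 (210 CPM against 386 and 374 CPM), and its part in the member levels was not tested. Leaving out any control library left the 6 calls of the RA comparison in place and at most 7 members called.

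**Figure D1:**
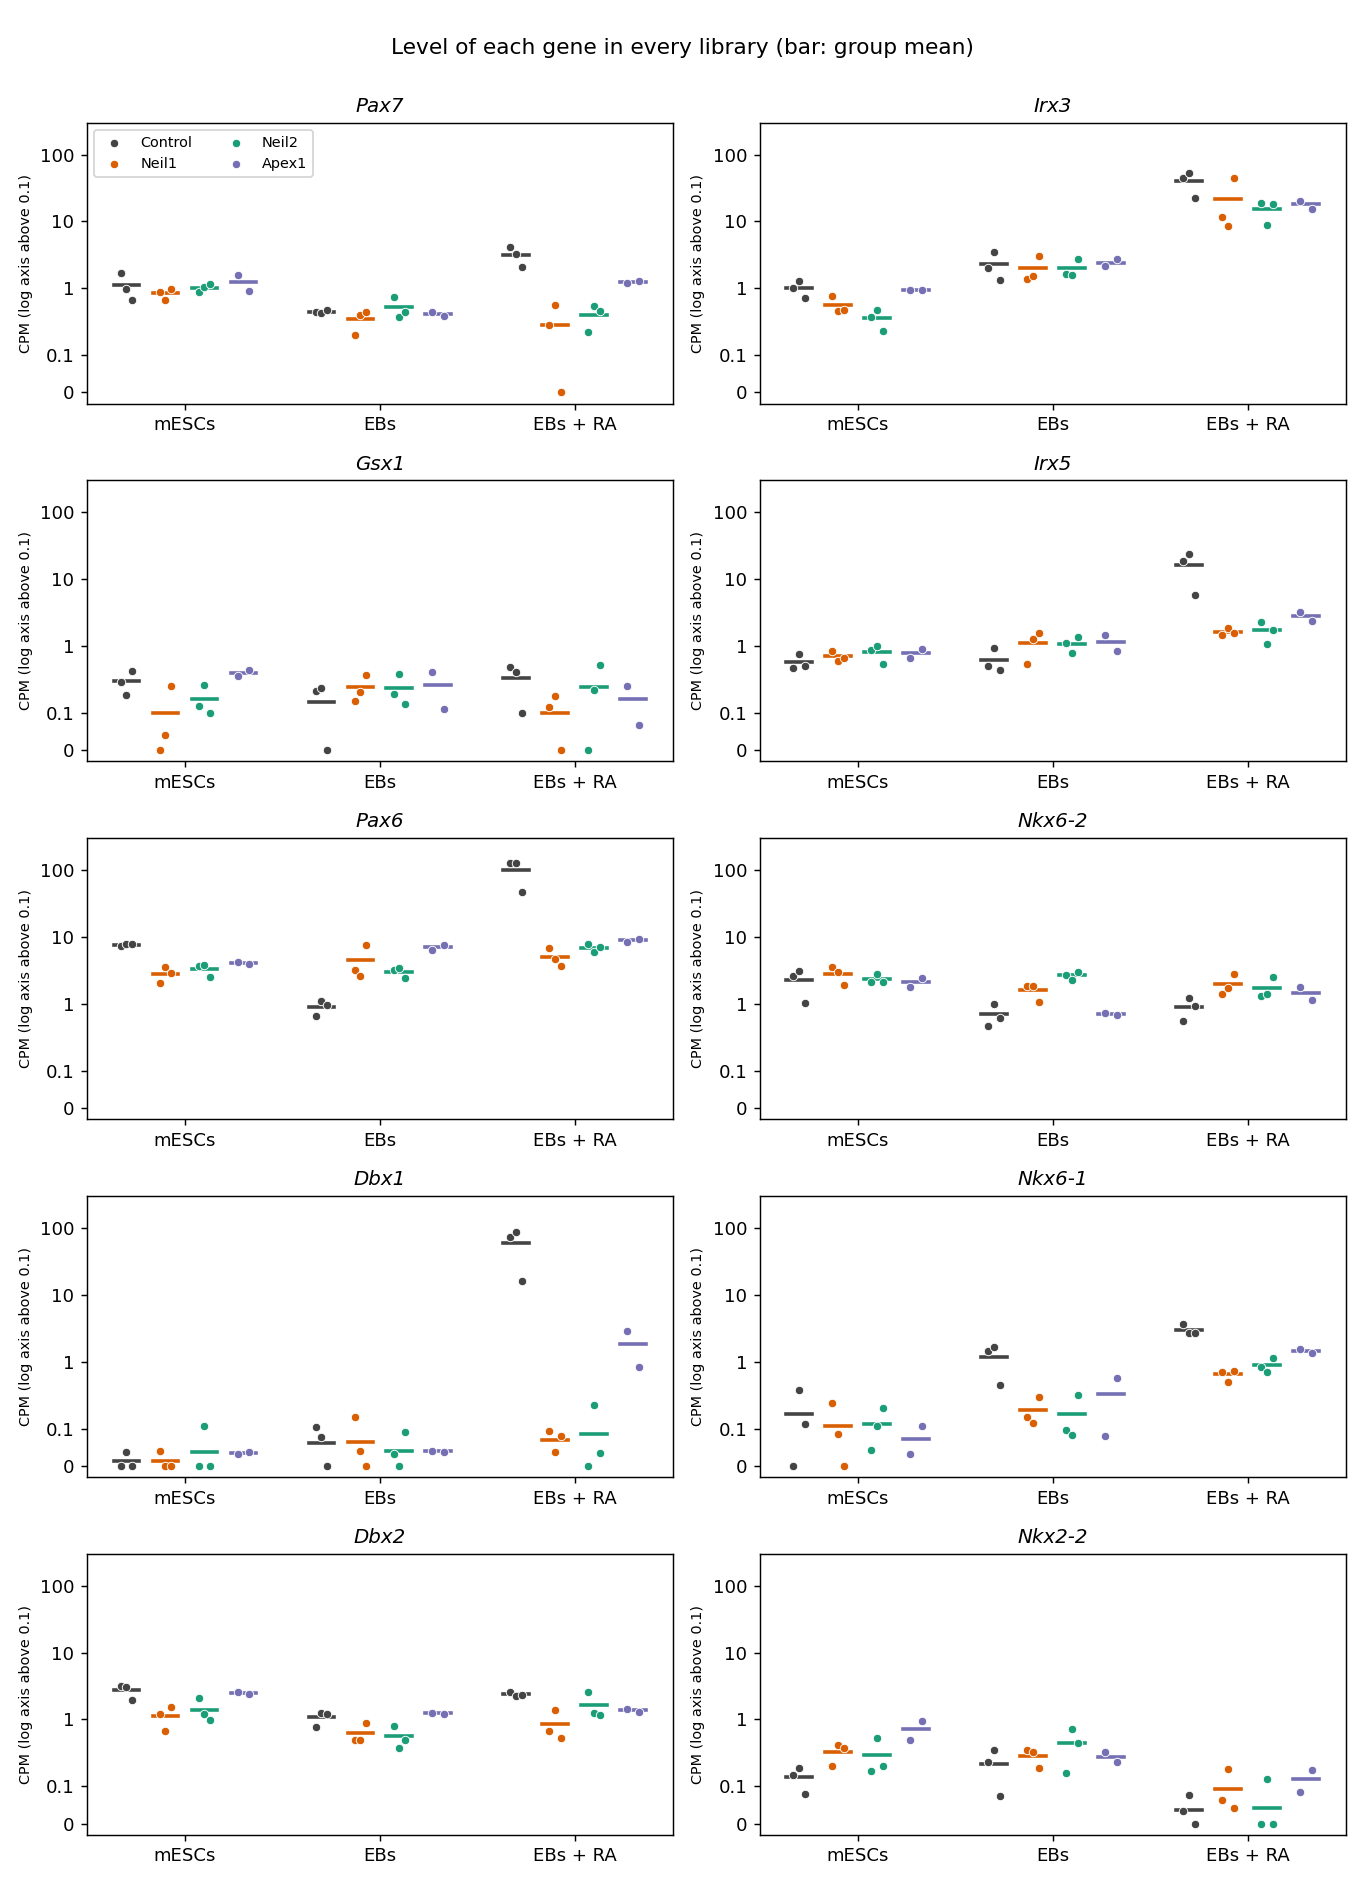
Level of each member in every library, in CPM on an axis that is logarithmic above 0.1 and includes 0; points are libraries, grouped by stage and coloured by genotype, and bars are group means. The 3 control libraries of EBs + RA lie above all mutant libraries of that stage for Pax7, Pax6, Dbx1, Irx5 and Nkx6-1, whereas Nkx2-2 and Gsx1 stay below 1 CPM throughout. The share of all genes lying apart in this way was not counted, and the Apex1 points are technical duplicates of 1 clone.

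Before RA, control EBs were compared with mESCs of the same clones. Of 7 members tested, 2 rose and 4 fell, where 38.7% of all genes were called in either direction. Pax6 was at 7.32, 7.80 and 7.74 CPM in mESCs and fell by 3.12 on the log2 scale (SE 0.27, FDR = 3.84e-05), so that control EBs held the lowest Pax6 level of all groups. Nkx6-2 fell from 2.60, 3.10 and 1.02 CPM (log2 fold change -1.73 ± 0.47, FDR = 0.0169), and Dbx2 fell from 3.11, 3.07 and 1.97 CPM (-1.36 ± 0.32, FDR = 0.00907). Pax7 fell from 1.68, 0.984 and 0.668 CPM (-1.32 ± 0.41, FDR = 0.0281), a call that was lost without mESC clone #1 (-0.89, FDR = 0.139). Nkx6-1 rose from 0, 0.378 and 0.118 CPM (2.79 ± 0.80, FDR = 0.0211). Irx3 rose from 1.03, 1.29 and 0.707 CPM (1.15 ± 0.41, FDR = 0.0509) and lost the call without mESC clone #1 (1.17, FDR = 0.104) or EB clone #4 (0.73, FDR = 0.208). Irx5 did not pass the test (0.07 ± 0.41, FDR = 0.911).

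In EBs + RA, the Neil1 clones were the contrast that chose the members, and their values are described without a test. Dbx1 was at 0.0929, 0.0357 and 0.0808 CPM in clones #7, #9 and #11, which is 6 counts in all, against 5010 counts in controls. Its log2 fold change of -9.61 ± 0.88 was the second lowest of 16019 genes tested. Pax6 was at 6.94, 4.64 and 3.68 CPM (-4.30 ± 0.44), below every control library, and stood at rank 145 from the lowest. Pax7 was at 0.279, 0.572 and 0 CPM (-3.42 ± 0.73), and Irx5 was at 1.49, 1.89 and 1.58 CPM (-3.28 ± 0.50). The ventral Nkx6-1 was lower too, at 0.712, 0.50 and 0.727 CPM (-2.20 ± 0.32), and Dbx2 was at 0.681, 1.39 and 0.525 CPM (-1.44 ± 0.40).

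A pair of members did not share this direction in every Neil1 library. Irx3 was at 11.7, 8.65 and 44.8 CPM, so that clone #11 lay within the range of the control clones (-0.87 ± 0.61, and -1.96 without clone #11). Nkx6-2 was higher in Neil1 clones, at 1.39, 1.75 and 2.83 CPM against 0.562, 1.21 and 0.927 CPM in controls (1.15 ± 0.41), without overlap. Pax6, Pax7, Dbx1, Dbx2, Irx5 and Nkx6-1 thus lay below every control library and Nkx6-2 above, while Irx3, Nkx2-2 and Gsx1 overlapped with the controls. Over all genes, 41.1% were called in this contrast at the limits above, and the share lying apart without overlap was not counted. Nothing is read from which members lay apart.

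The Neil2 clones were not used to choose the members, although they were compared with the same control libraries. Dbx1 aside, 5 of 8 members tested were lower and 1 was higher, and 34.9% of all 16055 genes tested were called in this comparison. The members' median log2 fold change was -1.54, against 0.00 over all genes. Pax6 was at 7.73, 5.90 and 7.19 CPM in clones #1, #11 and #14, all below the lowest control (47.8 CPM), and fell by 3.85 on the log2 scale (SE 0.38, FDR = 0.000472). Pax7 was at 0.225, 0.542 and 0.452 CPM, again without overlap with the controls (-2.92 ± 0.41, FDR = 0.00183).

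Among the intermediate members, Dbx1 was at 0, 0.223 and 0.0347 CPM in the Neil2 clones, 8 counts in all (log2 fold change -9.24 ± 0.94 with no p-value, and -11.34 without clone #11, which held most of the counts). Irx5 was at 2.33, 1.08 and 1.77 CPM, below all controls (-3.22 ± 0.54, FDR = 0.0035). Irx3 was at 18.9, 8.99 and 18 CPM, just below the lowest control of 22.2 CPM, and its fall was the smallest of those called (-1.36 ± 0.37, FDR = 0.0237). Dbx2 overlapped with the controls (2.59, 1.24 and 1.18 CPM) and did not pass the test (-0.49 ± 0.36, FDR = 0.325), although it did without clone #1 (-0.95, FDR = 0.0313).

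The Nkx6 factors went in opposite directions in Neil2 EBs + RA. Nkx6-1 was at 0.825, 0.701 and 1.15 CPM, below all controls (-1.73 ± 0.31, FDR = 0.0045). Nkx6-2 was at 1.31, 1.43 and 2.50 CPM, above all controls (0.98 ± 0.40, FDR = 0.0915). That call was narrow: it was kept in 2 of 6 fits with 1 library left out, and was lost without control clone #1 (FDR = 0.275), control clone #7 (0.132), Neil2 clone #11 (0.115) or Neil2 clone #14 (0.307). Nkx6-2 shares 245 exon bases (12.9%) with Inpp5a on the other strand, which was at 28.7 to 39.3 CPM in all control and mutant EBs + RA. Gsx1 was at 0, 0.223 and 0.521 CPM and did not pass the test (-0.39 ± 0.89, FDR = 0.762).

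The Apex1 clone was compared as 1 library, its duplicates summed, in a fit with all genotypes of the stage, so that it is assumed to vary between clones as they do. Pax6 was at 8.52 and 9.29 CPM in the duplicates and fell by 3.47 on the log2 scale (SE 0.59, FDR = 0.0172). Irx5 was at 3.25 and 2.35 CPM (-2.53 ± 0.73, FDR = 0.0832), and these were the 2 calls among 8 members tested, where 7.21% of all genes were called. The Irx5 call was kept in 6 of 11 fits with 1 library left out, and was lost without control clone #1 (-2.40, FDR = 0.208), control clone #4 (-2.14, 0.193), Neil1 clone #7 (-2.54, 0.119), Neil1 clone #9 (-2.54, 0.113) or Neil2 clone #14 (-2.53, 0.122). Dbx1 was at 2.83 and 0.829 CPM, between the Neil clones and the controls (-5.06 ± 1.00, no p-value, and -6.12 without the first duplicate). Scaled to depth, the Apex1 clone held 18.7 times as many Dbx1 counts as the Neil2 clones (90 counts against 8, 95% exact interval 9.08 to 44.6, counting error only). Irx3 (20.5 and 15.5 CPM), Nkx6-1 (1.54 and 1.35 CPM), Pax7 (1.20 and 1.31 CPM) and Dbx2 (1.41 and 1.31 CPM) lay below the control range but did not pass the test (FDR = 0.515, 0.235, 0.474 and 0.543). The duplicates are of 1 clone, and the share of all genes lying below the control range was not counted. Nothing is read from the place of these members.

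**Figure D2:**
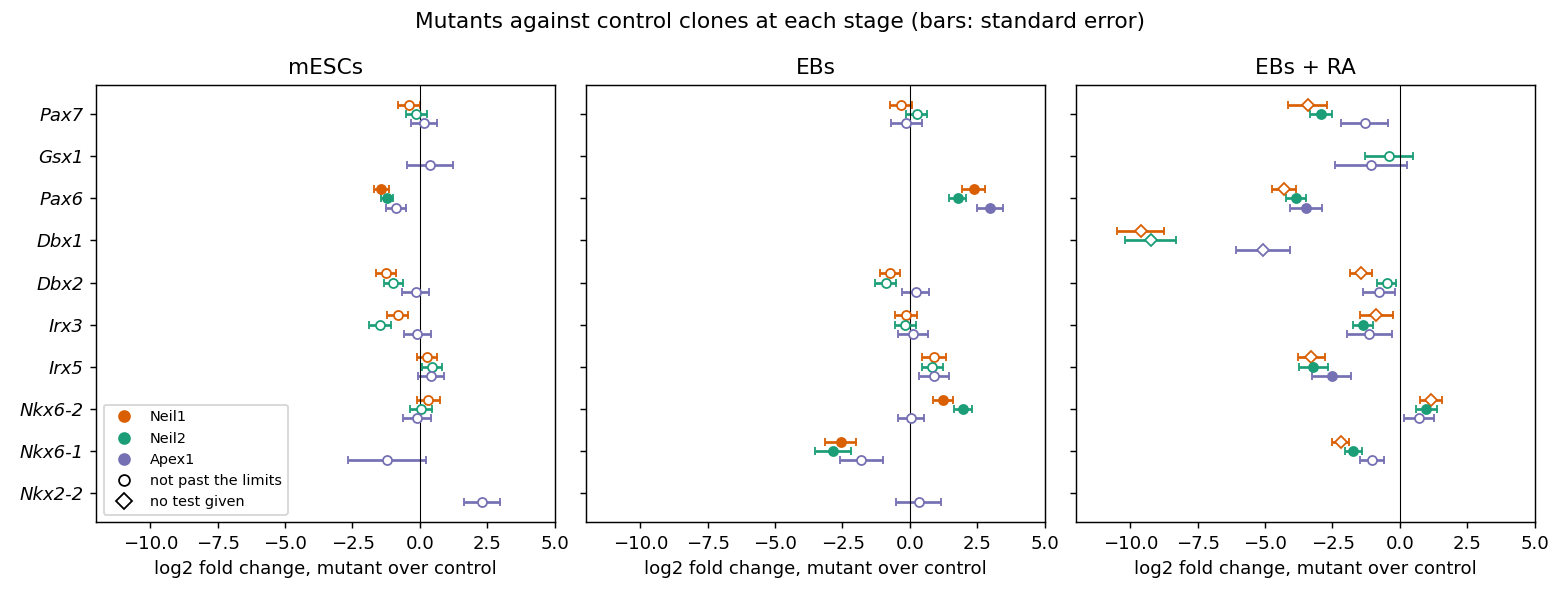
Log2 fold change of each member in Neil1, Neil2 and Apex1 cells over control clones, in 3 panels for mESCs, EBs and EBs + RA; bars are standard errors, filled circles passed the limits, open circles did not, and open diamonds carry no test. Pax6 lies left of 0 in mESCs, right of 0 in EBs (1.77 to 2.98) and left of 0 in EBs + RA (-4.30 to -3.47) in each mutant.

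The response to RA was then examined within each genotype, comparing EBs + RA with EBs of the same clones. In Neil2 clones, 4 of 7 members tested rose and 0 fell, where 21.4% of all genes rose, and 5 were called with the clone as a block. Irx3 rose from 1.63, 1.59 and 2.79 CPM (log2 fold change 2.91 ± 0.37, FDR = 0.000813), and Nkx6-1 rose from 0.0956, 0.0837 and 0.315 CPM (2.43 ± 0.55, FDR = 0.00914). Pax6 rose by 1.18 ± 0.26 (FDR = 0.008), from 3.16, 3.39 and 2.43 CPM. Dbx2 rose by 1.53 ± 0.47 (FDR = 0.031), a call lost without EB clone #14 (1.44, FDR = 0.107). Irx5 (0.64 ± 0.39, FDR = 0.222) and Pax7 (-0.39 ± 0.47, FDR = 0.537) did not pass the test, and Nkx6-2 did so only with the clone as a block (-0.68, FDR = 0.0754, against -0.64 ± 0.34, FDR = 0.165) or without EBs + RA of clone #14 (-0.97, FDR = 0.0875). Dbx1 went from 3 to 8 counts (ratio 2.38, 95% exact interval 0.571 to 13.9).

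In Neil1 clones, 2 of 6 members tested rose, where 28.2% of all genes rose. These were again Irx3 (from 1.40, 1.55 and 3.05 CPM, 3.40 ± 0.70, FDR = 0.00522) and Nkx6-1 (from 0.150, 0.122 and 0.298 CPM, 1.68 ± 0.46, FDR = 0.0143). Pax6 overlapped between Neil1 EBs (3.20, 2.64 and 7.67 CPM) and EBs + RA, with a log2 fold change of 0.14 ± 0.42 (FDR = 0.805). Irx5 did not pass the test (0.50 ± 0.39, FDR = 0.3), and Dbx1 went from 4 to 6 counts (ratio 1.26).

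In the Apex1 clone, Dbx1 aside, 2 of 9 members tested rose, where 12.6% of all genes rose. Dbx1 went from 2 counts to 90 (ratio 43.8, interval 11.8 to 367, counting error only), and is given no p-value because the fit holds the libraries that chose it. Irx3 rose from 2.15 and 2.71 CPM (2.85 ± 1.00, FDR = 0.0668, lost at 0.16 with no filter on low counts). Nkx6-1 rose from 0.0811 and 0.572 CPM (2.08 ± 0.76, FDR = 0.0733), and its call was lost without the first EB duplicate (1.31, FDR = 0.259). Pax6 did not pass the test (0.34 ± 0.64, FDR = 0.771), its level being 6.45 and 7.58 CPM already in EBs. Irx3 and Nkx6-1 were therefore the members that passed the test of the RA response in all 4 genotypes. For Nkx6-1 this rests on few counts, 14, 12 and 17 over the EBs of Neil1, Neil2 and Apex1. In EBs of Neil1 and Neil2 clones alone, Nkx6-1 was too low to be tested. In these clones it entered the RA test through EBs + RA, so a fall could not have been called.

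Whether the RA response differed between Neil2 and control clones was tested as an interaction, in the 8 members with enough counts besides Dbx1. For 3 of them the response was smaller (4 with the clone as a block), and 15.0% of all genes were called in this test. The difference on the log2 scale, Neil2 minus control, was -5.65 ± 0.49 for Pax6 (FDR = 2.63e-05), with -4.06 ± 0.70 for Irx5 (FDR = 0.00282) and -3.18 ± 0.57 for Pax7 (FDR = 0.00346). For Irx3 the difference was -1.20 ± 0.57 (FDR = 0.214) without the clone as a block and -1.24 (FDR = 0.0181) with it, so that the call depended on the block. It also passed the limits without EBs + RA of control clone #7 (-1.46, FDR = 0.0889). For Nkx6-1 the difference was positive, 1.10 ± 0.73, and did not pass the test (FDR = 0.383).

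**Figure D3:**
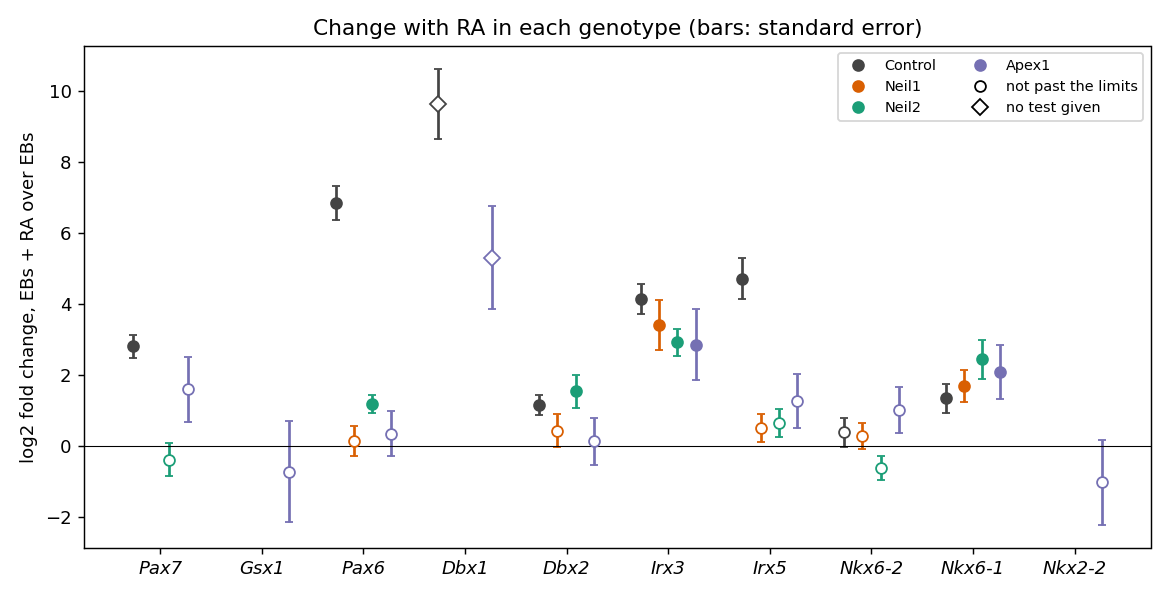
Log2 fold change of EBs + RA over EBs for each member and genotype; bars are standard errors, filled circles passed the limits, open circles did not, the open diamonds (Dbx1 in control and Apex1 clones) carry no test, and genes too low to be tested have no point. Control clones reach 6.84 for Pax6 and 4.70 for Irx5 whereas the mutants stay at or below 1.26 for both, and Irx3 lies between 2.85 and 4.13 in all genotypes.

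In EBs without RA the members differed from the controls in another pattern. In Neil2 EBs, 2 of 7 members tested were higher and 1 lower, where 16.3% of all genes were called, and in Neil1 EBs the counts were the same among 23.5% of all genes called. Pax6 in Neil1 EBs (3.20, 2.64 and 7.67 CPM) lay above all controls (0.652 to 1.09 CPM), with a log2 fold change of 2.36 ± 0.43 (FDR = 0.00302). In Neil2 EBs it was higher by 1.77 ± 0.31 (FDR = 0.00788) and in the Apex1 clone by 2.98 ± 0.49 (FDR = 0.00782), which was the only member called there (1 of 8 tested, 8.89% of all genes called). The call was kept in every fit with 1 library left out (6 of 6, 6 of 6 and 11 of 11).

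The Nkx6 factors again moved in opposite directions in Neil-deficient EBs. Nkx6-1 was at 0.150, 0.122 and 0.298 CPM in Neil1 EBs and at 0.0956, 0.0837 and 0.315 CPM in Neil2 EBs, below the lowest control of 0.442 CPM. These were 14 and 12 counts in all, and Nkx6-1 entered both tests through the control EBs. The log2 fold changes were -2.57 ± 0.57 (FDR = 0.00689) and -2.85 ± 0.66 (FDR = 0.0248), respectively, and -1.81 ± 0.80 (FDR = 0.23) in the Apex1 clone, which passed the limits without its second duplicate (-3.79, FDR = 0.0773). Nkx6-2 was higher in Neil2 EBs (2.74, 2.30 and 2.97 CPM, 1.97 ± 0.35, FDR = 0.00811). It was also higher in Neil1 EBs (1.85, 1.87 and 1.08 CPM, 1.22 ± 0.37, FDR = 0.0322), a call lost without control clone #1 (0.96, FDR = 0.122) or Neil1 clone #9 (1.09, FDR = 0.11). In the Apex1 clone Nkx6-2 did not differ detectably (0.730 and 0.686 CPM, FDR = 0.973). Irx3 and Irx5 did not pass the test in EBs of any mutant, with Irx5 at a log2 fold change of 0.82 to 0.89 (FDR = 0.152 to 0.42). In Neil1 EBs Irx5 passed the limits without control clone #4 (1.25, FDR = 0.0953) or Neil1 clone #7 (1.20, FDR = 0.0641).

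In undifferentiated mESCs, Pax6 was the 1 member called, and it was lower. It was at 2.04, 3.62 and 2.88 CPM in Neil1 clones and at 3.74, 3.75 and 2.53 CPM in Neil2 clones, below the controls (7.32 to 7.80 CPM). The log2 fold changes were -1.43 ± 0.27 (FDR = 0.0811) and -1.21 ± 0.22 (FDR = 0.0618), among 1.82% and 1.83% of all genes called. These calls were kept in only 1 of 6 and 2 of 6 fits with 1 library left out, with log2 fold changes of -1.65 to -1.25 and -1.31 to -1.04. For Neil1 the call was kept only without control clone #7, and for Neil2 without control clone #7 or Neil2 clone #1. The Apex1 clone (4.30 and 4.01 CPM) did not pass the test for Pax6 (-0.89 ± 0.37, FDR = 0.238), where 0 of 9 members and 1.98% of all genes were called (3066 genes had an unadjusted p under 0.05, and DESeq2 called 1 member). Nkx2-2 was at 0.493 and 0.947 CPM in the Apex1 mESCs against at most 0.189 CPM in controls, and did not pass the test either (2.30 ± 0.67, FDR = 0.126), although it did without control clone #7 (2.04, FDR = 0.0872) and with the duplicates taken as 2 libraries (2.31, FDR = 0.0268).

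Pax6 counts at the 3 stages have a limit in the annotation. Pax6 (chr2:105509053-105543317) shares 5542 exon bases, 27.9% of its 19833, with Elp4 on the other strand, and the unstranded kit with a counter that drops ambiguous reads leaves these bases out of both genes. Elp4 was at 10.4 ± 1.94 CPM in control EBs + RA, and at 4.11 ± 1.67 in Neil1, 4.87 ± 0.657 in Neil2 and 11.5 ± 0.106 CPM in Apex1 EBs + RA (SD, n = 3, 3 and 2). Irx3 shares 5.3% of its exon bases with D230002A01Rik, and Nkx2-2 shares 9.7% with Nkx2-2as.

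Between Neil1 and Neil2 clones, 0 of 6 members tested in EBs and 0 of 7 in EBs + RA differed by edgeR's quasi-likelihood test, and neither did any other gene (0.0% called in both). At an unadjusted p under 0.05 there were 735 of 15294 genes in EBs and 1608 of 15884 in EBs + RA. Where no gene differs, a share of about 0.05 reaches that limit. DESeq2 called 1 gene in EBs and 111 in EBs + RA. The differences of the members in EBs + RA were -0.42 ± 0.28 for Pax6, -0.04 ± 0.35 for Irx5 and -0.43 ± 0.36 for Nkx6-1 on the log2 scale, each within 2 standard errors of 0. Irx3 differed by 0.54 ± 0.61 (FDR = 0.728), which turned to -0.57 without Neil1 clone #11.

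Other transcription factors of neural tube progenitors were set beside the members as a list of 30 genes. In control clones, RA raised 16 of the 22 tested and lowered 1 (median log2 fold change 2.74, against 0.02 over all genes, of which 23.3% rose and 20.7% fell). Among those called with the largest changes were Neurog2, a proneural bHLH factor, at 10.8 ± 4.76 CPM in EBs + RA and 0.0123 CPM in EBs, and Prdm12, a factor of the p1 domain, at 7.30 ± 1.61 and 0.00701 CPM. Wnt1, the signal of the dorsal midline, was at 11.1 ± 6.53 CPM and at 0 in all 3 control EB libraries. In Neil2 EBs + RA, 15 of 25 were lower than in controls and 5 higher (median -2.33, all genes 0.00, with 16.6% of all genes lower and 18.3% higher), with Neurog1 at 0.0869 ± 0.0968 against 14.6 ± 5.81 CPM (log2 fold change -7.24 ± 0.65, FDR = 0.000346). Genes near 0 in a group, such as Neurog1 here and Wnt1 above, entered the test through the other group alone. They could be called in that direction only, and the counts and medians include them. The list was also chosen with earlier results of these data known. The same limits hold for the lists that follow. In the Apex1 clone 9 of 27 were lower and 1 higher (median -1.09, with 2.25% of all genes lower and 4.97% higher).

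In EBs without RA, the dorsal factors of that list showed the largest differences. Msx1, a BMP target of the dorsal neural tube that mesoderm uses as well, was at 3.34 ± 0.69 CPM in Neil2 EBs and 97.8 ± 29.5 CPM in control EBs (-4.85 ± 0.28, FDR = 6.68e-05). Msx2 was at 8.35 ± 0.87 and 74.0 ± 11.5 CPM (-3.13 ± 0.16, FDR = 3.57e-05), and the dorsal factor Pax3 at 0.207 ± 0.208 and 1.12 ± 0.316 CPM (-2.28 ± 0.59, FDR = 0.0377). Of the list, 4 of 13 tested were lower and 2 higher in Neil2 EBs (median 0.32), beside 7.69% and 8.65% of all genes. In Neil1 EBs 5 of 13 were lower and 2 higher (median -0.31), beside 13.1% and 10.4% of all genes. Markers of neurons born from the domains (30 genes) rose in control clones with RA in 14 of 20 cases and fell in 4, beside 23.3% and 20.7% of all genes. Lhx5 was higher by 4.75 ± 0.54 (FDR = 0.00014), and Evx1, which V0 neurons and the primitive streak both use, was at a log2 fold change of -6.14 ± 0.24 (FDR = 6.91e-07). In Neil2 EBs + RA, 9 of 21 were lower and 4 higher (median -0.09), beside 16.6% and 18.3% of all genes, and the genes with the largest changes were lower, including Lhx5 (-3.25 ± 0.37, FDR = 0.000786) and Lhx1 (-3.15 ± 0.28, FDR = 0.000343).

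In EBs + RA, markers of the neural lineage and of pluripotency differed between mutants and controls. The summed level of the 9 pan-neural progenitor markers counted was 210 to 386 CPM in control EBs + RA, 47.2 to 91.7 in Neil1, 67.7 to 125 in Neil2 and 170 to 179 CPM in Apex1. In Apex1 most of the sum was Sox2, which stem cells express too, at 98 to 108 CPM against 40.6 to 87.1 CPM in controls. In contrast, 7 of the 9 markers were lower in Apex1, beside 2.25% of all genes. Hes5, a Notch target of neural progenitors, was at 8.41 ± 4.00 CPM in control EBs + RA and lower in Neil2 (log2 fold change -6.00 ± 0.59, FDR = 0.000482). Pan-neuronal markers (5 genes) summed to 125 to 215 CPM in control EBs + RA, and to 22.4 to 34.3, 16.2 to 35.0 and 32.7 to 40.5 CPM in Neil1, Neil2 and Apex1. Pluripotency markers (7 genes) went the other way, with 159 to 243 CPM in control EBs + RA, 442 to 882 in Neil1, 498 to 1640 in Neil2 and 1540 to 2130 CPM in Apex1. None of these 3 lists had a marker at 0 in a whole group, and their part in the member levels was not tested.

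**Figure D4:**
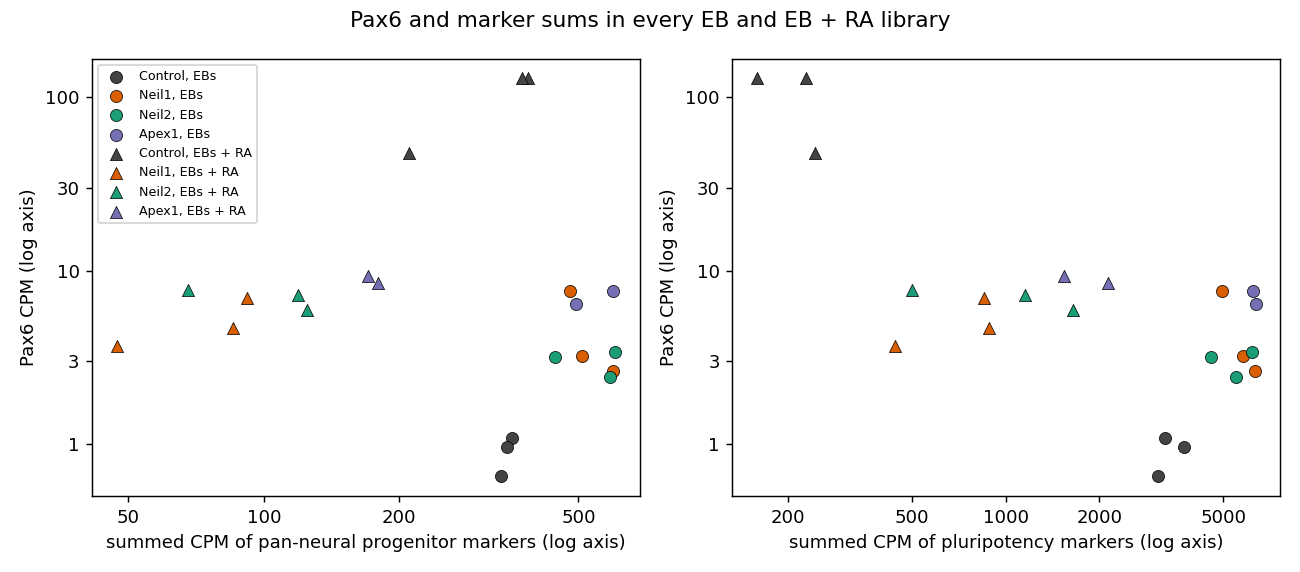
Pax6 in CPM (log axis) against the summed CPM (log axis) of pan-neural progenitor markers, left, and of pluripotency markers, right, with 1 point for each of the 22 EB and EB + RA libraries; circles are EBs, triangles EBs + RA, and colours are genotypes. The control EBs + RA lie at 47.8 to 128 CPM of Pax6 and 159 to 243 CPM of pluripotency markers, apart from all mutant EBs + RA, which lie at 3.68 to 9.29 CPM and 442 to 2130 CPM.

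The same markers also differed in EBs, in which Pax6 was higher in the mutants. Pan-neural progenitor markers summed to 337 to 356 CPM in control EBs and to 443 to 604 CPM in the mutants, mostly Sox2, which stem cells express too (294 to 309 CPM in control EBs). Of these markers, 3 of 7 tested were lower and 1 higher in Neil2 EBs, beside 7.69% and 8.65% of all genes. Nes, an intermediate filament of neural progenitors, was at 15.8 ± 2.19 against 35.3 ± 8.16 CPM (-1.14 ± 0.20, FDR = 0.00739). Pluripotency markers summed to 3090 to 3750 CPM in control EBs and to 4570 to 6350 CPM in the mutants, and 5 of 7 were higher in Neil2 EBs (8.65% of all genes). Mesoderm and blood markers were lower in 6 of 9 cases and higher in 1, both in Neil1 and in Neil2 EBs. Over all genes, 13.1% were lower and 10.4% higher in Neil1 EBs, and 7.69% and 8.65% in Neil2 EBs. Kdr, a receptor of mesodermal and endothelial precursors, was at 1.07 ± 0.0434 CPM in Neil2 and 37.4 ± 6.06 CPM in control EBs (-5.11 ± 0.21, FDR = 1.76e-05). The part of these markers in the Pax6 levels was not tested.

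Other tissues in which some members are used gave no common direction. Pancreatic endocrine markers, relevant to Pax6, Nkx2-2 and Nkx6-1, were higher with RA in control clones in 3 of 4 tested, and lower in 2 and higher in 1 of 4 in Neil2 EBs + RA. Eye field and lens markers, relevant to Pax6, were higher in 2 and lower in 1 of 3 in Neil2 EBs + RA, and endoderm markers passed the test in 0 of 7. Skeletal muscle markers, relevant to Pax7, were lower in 1 of 2 there, and this gene was Pax3, which the list of progenitor factors holds too. Over all genes, 18.3% were higher and 16.6% lower in Neil2 EBs + RA. With RA in control clones, 23.3% were higher and 20.7% lower.

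Across the 33 libraries, the members' log2 CPM values were also compared with each other and with all genes, as a description: the libraries share clones and stages, and what sets these correlations was not tested. Among members, Pearson's r was highest for Dbx1 and Irx5 (0.89), followed by Pax6 and Irx5 (0.85) and by Irx3 and Nkx6-1 (0.83). Pax6 and Dbx1, and Irx3 and Irx5, stood at 0.80 each, and the lowest value was that of Irx3 and Nkx2-2 (-0.67). Among 12717 genes reaching 5 CPM in some group, those most like Dbx1 were 2610017I09Rik (0.968), Nhlh2 (0.953) and Nhlh1 (0.953), the latter both bHLH factors of young neurons. Among those most like Pax6 were Prdm13 (0.898), a factor of dorsal progenitors, and Wnt1 (0.871). Irx3 was most like Basp1 (0.957), Zfp46 (0.954) and 1300018I17Rik (0.949), and Irx5 most like Dtx4 (0.936), Tshz3 (0.921) and Pou3f3 (0.917).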

How the data were processed

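Poly(A) RNA libraries (TruSeq v2, unstranded) of 33 samples had been sequenced for 51 cycles. Per the study's methods and the submitters' processing notes, the authors mapped reads to NCBIM37/mm9 with TopHat2 2.0.9 and Bowtie2 2.1.0, and the deposited values are raw counts per Ensembl gene from HTSeq 0.5.4, which drops ambiguous reads. The study ran DESeq2 1.6.3, whose limits (FDR 0.1, absolute log2 fold change 0.5) were kept here. Each library had 21523742 to 48350904 counts, which sets the counting error of low genes.

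Counts were filtered with filterByExpr, scaled by TMM and tested with edgeR 4.0.16 (quasi-likelihood, robust, Benjamini-Hochberg adjustment over all genes tested) in R 4.3.3, with only the groups compared in a fit. Apex1 duplicates were summed to 1 library and fitted with all genotypes of the stages compared. Rows without a gene were left out of library sizes. Intervals of ratios are exact conditional binomial ones at 95%, and cover counting error only. Alternatives were RLE scaling, no filter, at least 10 counts in every library, DESeq2 1.42.0, FDR 0.05, all genotypes in 1 fit, a replicate block and leaving out each library.

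EBs and EBs + RA came from the same clones, divided on day 4, and deviated together in all 9 clones (r = 0.145 to 0.461), so the numbers pair them; the fits given are without the block, and blocked values stand beside them where a call changed. Control EBs and mESCs share clones, with r of -0.194 to 0.172. Neil1 and control EBs + RA of the same number also deviated together (r = 0.176 to 0.268).

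Members and lists were chosen with earlier results of these data known. All 10 members were named in every group; of each list, at most the 3 largest changes among called genes; and for likeness, the 3 genes with the highest r for Dbx1 and members reaching 5 CPM. Sox1 and Map2 of the marker lists were not analysed here, and some genes that the rule selects are not reported here. Motifs were searched in RefSeq promoters on both strands.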

Additional observations from a re-analysis of the deposited data

Results flagged for a closer look

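The RA response of 3 members differed between Neil2 and control clones by a test of the difference itself (edgeR's quasi-likelihood interaction test). The difference of the log2 fold changes, Neil2 minus control, was -5.65 for Pax6, -4.06 for Irx5 and -3.18 for Pax7. Each kept its direction and its call in every fit with 1 library left out.

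The difference of Pax6 between mutant and control cells had opposite signs at different stages, and this difference between stages was tested only for Neil2 between EBs and EBs + RA, by the interaction above. In Neil1 clones the log2 fold change was -1.43 in mESCs, 2.36 in EBs and -4.30 in EBs + RA. In Neil2 clones it was -1.21, 1.77 and -3.85, and in the Apex1 clone -0.89, 2.98 and -3.47, respectively. Every mutant library lay above all control libraries in EBs, and below all of them in mESCs and in EBs + RA. Of these values, those of Neil1 EBs + RA belong to the contrast that chose the members, and the mESC value of Apex1 did not pass the test. The mESC calls of Neil1 and Neil2 were kept in only 1 of 6 and 2 of 6 fits with 1 library left out. The stages share control clones, so the 3 mutants are not independent of each other at any stage.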

How the results depend on the processing

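Depth limits Nkx2-2, Gsx1 and, outside control and Apex1 EBs + RA, Dbx1, which had at most 41 counts over a group, and mESC calls were the least stable. Nkx6-1 was as sparse in mESCs (4 to 13 counts over a group) and in Neil1, Neil2 and Apex1 EBs (14, 12 and 17 counts). Its fold changes against these groups rest on few counts. Over all alternatives of the member changes that passed the limits in some fit or exceeded 0.5 on the log2 scale, and of the RA changes of Pax6, 1334 values kept direction and side of the limits, 39 lost the call, 24 gained it, 6 turned sign and 5 without a test moved by over 1 SE. Over all 129 member changes, the range with 1 library left out held both signs for 28, none of which was called. The causes of these shifts were not tested, except that a stricter filter tests fewer genes.

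Numbers of members called moved as follows. With at least 10 counts in every library, the RA comparison gave 1 instead of 2 in Neil1, 2 instead of 4 in Neil2 and 1 instead of 2 in Apex1, and Apex1 EBs + RA gave 1 instead of 2. With no filter there was 1 for Apex1 with RA. With FDR 0.05 there were 0 for Apex1 with RA, 0 in Neil1 and Neil2 mESCs and 1 in Apex1 EBs + RA. DESeq2 called 2, 2 and 1 members in Neil1, Neil2 and Apex1 mESCs. All genotypes in 1 fit gave 0 in Neil2 mESCs. The duplicates of Apex1 taken as 2 libraries gave 5 with RA and 2 in mESCs. Leaving out 1 library gave 1 to 2 members for Apex1 with RA, 0 to 2 in Neil1 mESCs, 0 to 3 in Neil2 mESCs, 0 to 1 in Apex1 mESCs, 1 to 2 in Apex1 EBs and 1 to 2 in Apex1 EBs + RA.

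The genotypes compared within a stage share only a number (r = -0.443 to 0.547), Neil1 EBs + RA aside. With the replicate block, 0 members were called in Neil1 mESCs (Pax6 -1.47, FDR = 0.201) and 2 in Neil2 mESCs (Irx3 -1.48, FDR = 0.0809), and Nkx6-2 in Neil2 EBs + RA lost its call (0.98, FDR = 0.101); besides those given in the report, the block changed no other call of a member.

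Among the changes counted first above, signs turned only when 1 library was left out. The RA change of Pax6 in Neil1 ranged from -0.15 to 0.76 and that of Gsx1 in Apex1 from -1.83 to 0.40. Neil1 against Neil2 ranged from -0.04 to 0.86 for Pax6 in EBs and from -0.57 to 0.90 for Irx3 in EBs + RA.

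Some calls of members also changed with other settings. Nkx6-2 in Neil2 EBs + RA was lost with no filter (FDR = 0.102) and with all genotypes in 1 fit (0.101), Pax6 in Neil2 mESCs with all genotypes in 1 fit (0.108), and Irx5 in Apex1 EBs + RA with the stricter filter (0.1). Without mESC control clone #7, Dbx2 was called in Neil1 (-1.45, FDR = 0.0515) and Neil2 mESCs (-1.17, 0.0483), and Irx3 in Neil2 mESCs (-1.68, 0.0291). Dbx2 was also called in EBs of Neil1 without clone #11 (-1.09, 0.0685) and of Neil2 without clone #1 (-1.29, 0.0504).

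Over all genes, the number called moved by over 1.5 times in some alternatives: from 283 (0 to 2011) in Neil1 mESCs, 286 (1 to 1494) in Neil2 mESCs, 336 (0 to 3005) in Apex1 mESCs, 2545 (1407 to 3705) in Neil2 EBs, 1499 (582 to 3235) in Apex1 EBs, 1272 (249 to 3398) in Apex1 EBs + RA, 4048 (2747 to 7008) for Apex1 with RA and 2516 (1614 to 3734) for the interaction.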
